A study of Mus musculus with 7 samples.

Results

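Expression of 8 genes of the pacemaker current, calcium entry, acetylcholine-gated potassium flow and cell-to-cell coupling of the heart was followed in the atrioventricular canal of mouse embryos without Hand2. They are the pacemaker channel Hcn4, the calcium channel genes Cacna1g, Cacna1h and Cacna1d, the potassium channel gene Kcnj3, and the connexins Gja1, Gja5 and Gjc1. They were chosen by name, and all 8 had a row among the 23284 gene rows of the count files and passed the filter on low counts that left 14290 genes. The study compared 4 libraries of Hand2 d/d null embryos with 3 libraries of wild-type embryos, all from outbred NMRI mice at the stage of 18 to 23 somites, shortly after embryonic day 9.0 (the sample titles read day 9.5). The null allele lacks all Hand2 coding sequence and was made by Cre deletion in the germline, so Hand2 is missing from every cell of the embryo and not from the canal alone. Each library is 1 pool of 4 hand-dissected canals, and the pools were balanced for somite stage and sex ratio.

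The atrioventricular canal is the part of the heart tube that delays the impulse between atrium and ventricle and later gives rise to the atrioventricular node. Cells in such slow tissue spontaneously depolarise through HCN channels and T-type and L-type calcium channels, and are joined by connexins of low conductance, whereas the fast chambers use connexins of high conductance. In mouse hearts the T-box repressors of the canal keep Gja1 and Gja5 low there, and Gjc1 is the connexin of the early heart tube. Gja5 is also a connexin of arterial endothelium, and Gja1 is made by many cell types outside muscle.

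Reads on Hand2 numbered 7, 26, 10 and 14 in the null libraries (replicates 1 to 4) and 2123, 1224 and 1194 in the wild-type libraries (replicates 2 to 4), which matched all 7 labels. Null libraries held 28667561 to 38938029 reads in genes and wild-type libraries 27905601 to 44860753. Levels are given as CPM, the reads of a gene per 1000000 reads in genes, and 3 reads, taken as the floor, were 0.0770 to 0.105 CPM in null and 0.0669 to 0.108 CPM in wild type. The summed CPM of 10 heart muscle markers was 35649 to 42240 in the null, and 34875 to 39499 in the wild-type libraries, and of these markers only Myh7 passed the test (log2 fold change 0.80). The canal markers Tbx2, Tbx3, Bmp2, Msx2 and Rspo3 were present in every library (summed CPM 233 to 317 in null, 206 to 377 in wild type), and none of the 5 passed. No batch is given in the labels.

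The connexin Gja5 was higher in null canals, by a factor of 2.07 in the fit of all 7 libraries (edgeR adjusted p = 0.0471). It was the only one of the 8 genes to pass the threshold, and it kept the call in 1 of 7 fits with a library left out. Gja1, the highest of the 8 genes in CPM and per kilobase, had a log2 fold change of 0.53 that missed the threshold, while the canal connexin Gjc1 had -0.26. The pacemaker channel Hcn4 and the calcium channel genes Cacna1h and Cacna1d had values between -0.25 and 0.03. Cacna1g, on few reads, had -1.21 and did not pass. A gene was called where its p-value in edgeR's quasi-likelihood test, adjusted over all genes by the Benjamini-Hochberg method, lay under 0.05. The count of 1 higher and 0 lower among 8 genes compares with 4.11% of all genes called higher (587) and 2.13% called lower (305), or 6.24% in either direction. DESeq2 called 1015 genes higher and 811 lower. The median log2 fold change was 0.00 over the 8 genes and 0.02 over all genes tested.

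**Figure D1:**
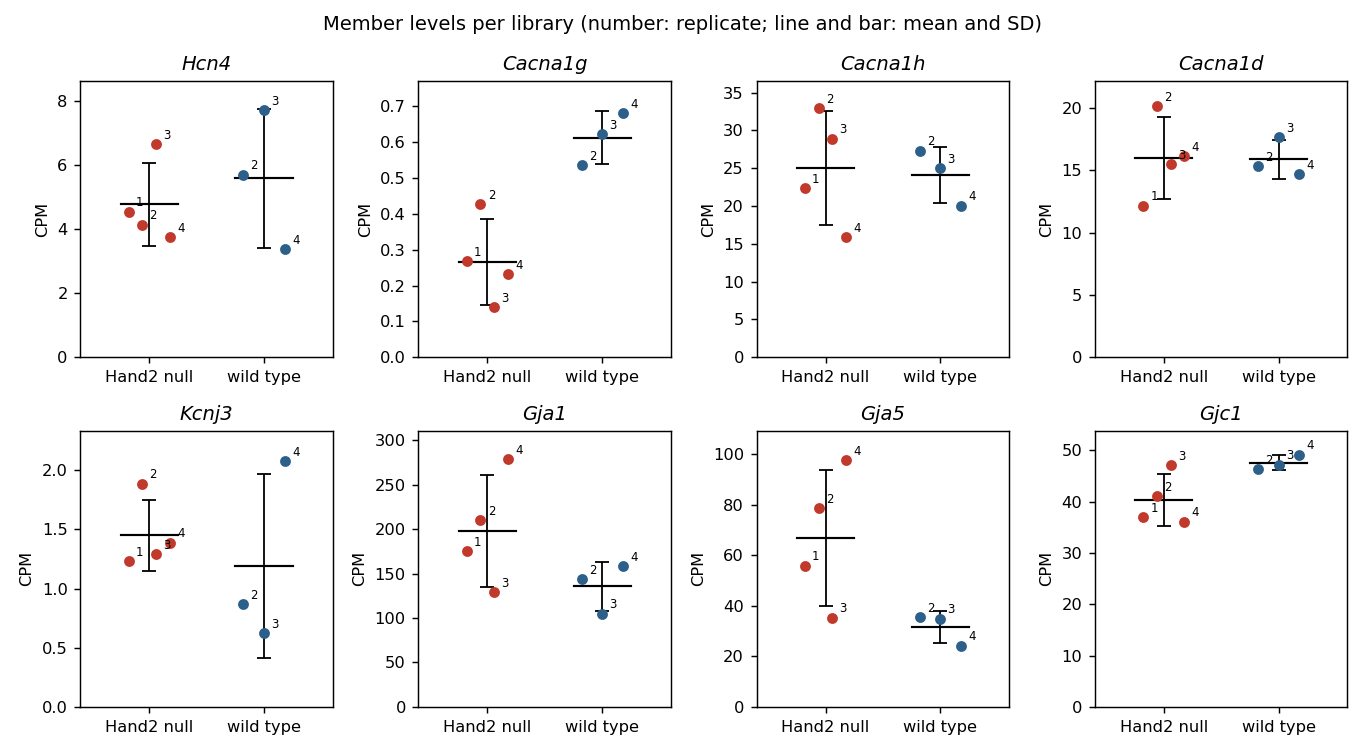
CPM (y axis) of each of the 8 genes in the 4 Hand2 null (left) and 3 wild-type (right) libraries, with the mean and SD and the replicate number beside each point. Gja5 lies above every wild-type library in 3 of the 4 null libraries, Cacna1g lies below every wild-type library in all 4, and the groups overlap for the other genes.

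HCN4 is the main channel of the pacemaker current in the heart. Hcn4 was at 4.55, 4.14, 6.66 and 3.75 CPM in null replicates 1 to 4, against 5.71, 7.71 and 3.37 CPM in wild-type replicates 2 to 4. The wild-type libraries alone spanned a factor of 2.29 and enclosed every null value. The log2 fold change was -0.25 (SE 0.310, 95% interval -0.93 to 0.43, edgeR adjusted p = 0.669), and without wild-type replicate 3 it was 0.07. None of the 2 tested among 4 other genes of the HCN channel complex passed. Markers of the sinus venosus, the inflow tissue where the pacemaker forms, were measured beside Hcn4. Of 3 such markers Isl1 rose, to 13.4 ± 5.76 CPM in null against 3.88 ± 1.47 CPM in wild-type canals (log2 fold change 1.77, adjusted p = 0.0131, but 0.0804 without wild-type replicate 2). Shox2 (log2 fold change 2.00, edgeR adjusted p = 0.129) and Tbx18 (0.40, adjusted p = 0.494) did not pass. Tbx18, which is also among the epicardial markers, averaged 16.9 CPM in null and 12.7 CPM in wild-type canals. The summed CPM of Isl1, Shox2 and Tbx18 was 22.8 to 41.4 in the null, and 12.6 to 23.7 in the wild-type libraries. The part of this tissue in the Hcn4 values was not tested.

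Cacna1g and Cacna1h encode the pore of T-type channels, which open at low voltage early in the pacemaker potential. Cacna1h exceeded Cacna1g per kilobase of exon by a factor of 71.3 to 215 in null libraries, against 30.6 to 53.0 in wild-type libraries. Its level was 22.4, 33.0, 28.9 and 15.9 CPM in null libraries, against 27.3, 25.0 and 20.1 CPM in wild-type libraries. Null replicates 2 and 3 lay above the wild-type range, replicate 4 lay below it and replicate 1 lay within it. The log2 fold change was 0.03 (SE 0.226, 95% interval -0.47 to 0.52, edgeR adjusted p = 0.957). Cacna1g rested on only 10, 14, 4 and 9 reads in null replicates 1 to 4, and on 24, 18 and 19 reads in wild-type replicates 2 to 4. That was 0.268, 0.426, 0.140 and 0.231 CPM in null against 0.535, 0.623 and 0.681 CPM in wild-type libraries, without overlap. Groups did not overlap for 21.8% of all genes tested, and the null group lay below for 10.3%. Its log2 fold change was -1.21 (SE 0.487, 95% interval -2.27 to -0.15), and with an adjusted p of 0.153 it did not pass. Only 1 null library but all 3 wild-type libraries reached the 0.304 CPM needed in 3 libraries to be tested, so that Cacna1g entered the test through its wild-type values. Within a library, reads of Cacna1h outnumbered those of Cacna1g by 83.5, 77.4, 207 and 68.7 to 1 in null replicates 1 to 4, against 51.1, 40.2 and 29.5 to 1 in wild-type replicates 2 to 4. Cacna1h itself had a log2 fold change of 0.03, so these ratios repeat the low Cacna1g counts and are given as a description. They were among the ratios compared by exact permutation. No support is drawn from that test, since Cacna1g entered through its wild-type values. With 1 CPM added to both genes the difference between the groups was 0.36 on the log2 scale, against 1.32 without it.

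Cacna1d encodes an L-type channel that opens at lower voltage than its relative Cacna1c and drives pacemaking in mouse nodes. It was at 12.2, 20.1, 15.5 and 16.2 CPM in null libraries, against 15.3, 17.6 and 14.7 CPM in wild-type libraries. Mean levels were 16.0 ± 3.27 CPM in null canals and 15.9 ± 1.55 CPM in wild-type canals (SD, n = 4 and 3), and the log2 fold change was -0.02 (SE 0.178, 95% interval -0.41 to 0.37, adjusted p = 0.963). None of the 8 tested genes among 9 other calcium channel subunits passed. The highest of them in CPM, the auxiliary subunit Cacna2d2, was at 118 ± 39.9 CPM in null and 103 ± 9.14 CPM in wild-type canals (log2 fold change 0.19, SE 0.238). Cacna1c was above Cacna1d in mean CPM, at 19.2 ± 6.68 in null and 22.2 ± 3.36 in wild-type canals (log2 fold change -0.23, SE 0.248). Per kilobase of exon, the ratio of Cacna1c to Cacna1d was 0.464 to 1.04 in null libraries, against 0.764 to 0.878 in wild-type libraries. Which of them is higher thus depends on the correction for length.

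KCNJ3 and KCNJ5 form the channel through which acetylcholine slows the heart. Kcnj3 was at 1.23, 1.89, 1.29 and 1.39 CPM in null libraries, against 0.869, 0.623 and 2.08 CPM in wild-type libraries. The wild-type libraries differed by a factor of 3.34 among themselves and enclosed all null values. The log2 fold change was 0.27 (SE 0.429, 95% interval -0.66 to 1.21, edgeR adjusted p = 0.741), and it was -0.02 without wild-type replicate 3. Its partner Kcnj5 was at 90.4 ± 24.0 CPM in null and 58.6 ± 5.29 CPM in wild-type canals. The groups of Kcnj5 did not overlap (65.4 to 115 CPM in null against 53.6 to 64.1 CPM in wild type), and with a log2 fold change of 0.60 (SE 0.181) it missed the threshold in edgeR (adjusted p = 0.0698). It passed in DESeq2 (adjusted p = 0.0266) and in edgeR without null replicate 3 (adjusted p = 0.0177). With any other library left out Kcnj5 did not pass in edgeR (adjusted p 0.095 to 0.249). Per kilobase of exon, Kcnj5 exceeded Kcnj3 by a factor of 56.4 to 86.0 in null pools against 34.4 to 95.9 in wild-type pools. None of the 12 tested among 14 other potassium channel genes passed.

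The Kcnj3 promoter is shown because it was the only one of 6 windows found for the 8 genes that held either motif searched. Windows run from 250 bases before to 50 bases after the start site in RefSeq (build GRCm38.p6), and 5 of the 8 genes had an entry, Cacna1d with 2. The motifs were CATCTG, an E-box form bound by HAND factors with their partners, and GGTGTG, the core of the T-box site, each searched on both strands. They occur in 17.2% and 19.0% of 32851 such windows. In Kcnj3 (chr2:55435720-55436019, plus strand) the capitals mark the reverse strand form of the T-box core, which starts 39 bases before the start site.
Kcnj3: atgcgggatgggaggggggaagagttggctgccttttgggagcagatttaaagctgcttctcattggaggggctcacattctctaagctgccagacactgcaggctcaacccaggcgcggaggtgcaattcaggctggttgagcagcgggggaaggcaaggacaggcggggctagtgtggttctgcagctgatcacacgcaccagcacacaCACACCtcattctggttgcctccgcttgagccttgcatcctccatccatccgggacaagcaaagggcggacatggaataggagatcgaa

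Connexins form the channels between neighbouring cells. Gja1, the main connexin of working ventricular muscle, was at 175, 210, 129 and 279 CPM in null libraries, against 144, 105 and 159 CPM in wild-type libraries. Null replicates 1, 2 and 4 lay above all wild-type libraries, and null replicate 3 lay between wild-type replicates 3 and 2. The log2 fold change was 0.53 (SE 0.222, 95% interval 0.04 to 1.01), with an adjusted p of 0.170 in edgeR. Without null replicate 3 it was 0.67 with an adjusted p of 0.0403. That fit called 946 genes higher and 652 lower, against 587 and 305 with all libraries. With any other library left out Gja1 did not pass (edgeR adjusted p 0.161 to 0.495).

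Gja5, the high-conductance connexin of atrium, trabeculae and arteries, was at 55.9, 78.7, 35.4 and 97.6 CPM in null libraries, against 35.6, 34.9 and 24.3 CPM in wild-type libraries. Null replicates 1, 2 and 4 lay above every wild-type library, by at least 20 CPM, and null replicate 3 lay within 1 CPM of the 2 higher wild-type libraries. Mean levels were 66.9 ± 27.1 CPM in null and 31.6 ± 6.34 CPM in wild-type canals (SD, n = 4 and 3). The log2 fold change was 1.05 (SE 0.280, 95% interval 0.44 to 1.66, edgeR adjusted p = 0.0471). It kept its direction with any 1 library left out (0.80 to 1.25), but it passed only without null replicate 3 (adjusted p = 0.00402). The adjusted p was 0.0837, 0.109 and 0.0683 without null replicates 1, 2 and 4, and 0.133, 0.114 and 0.115 without wild-type replicates 2, 3 and 4. Gja5 shares 165 exon bases with Gpr89 on the opposite strand in the GRCm38 annotation, and Gpr89 had a log2 fold change of 0.06 (SE 0.208).

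**Figure D2:**
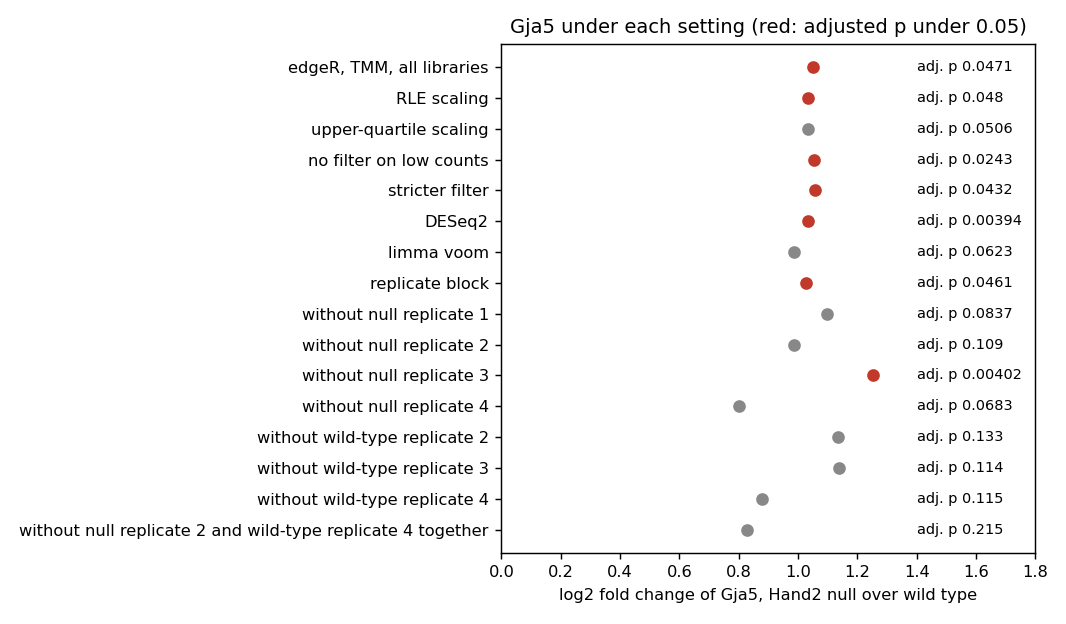
Log2 fold change of Gja5 in Hand2 null over wild-type canals (x axis) with each setting or library left out (rows), with its adjusted p. All values lie between 0.80 and 1.25, and the red points are those with an adjusted p under 0.05.

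The promoters of Gja5 and Gja1, the genes with the largest positive fold changes among the 8, are printed for comparison. Neither window held CATCTG or GGTGTG on either strand, which says nothing of sites outside it. The windows are chr3:97032152-97032451 for Gja5 and chr10:56377050-56377349 for Gja1, both on the plus strand of GRCm38.p6.
Gja5: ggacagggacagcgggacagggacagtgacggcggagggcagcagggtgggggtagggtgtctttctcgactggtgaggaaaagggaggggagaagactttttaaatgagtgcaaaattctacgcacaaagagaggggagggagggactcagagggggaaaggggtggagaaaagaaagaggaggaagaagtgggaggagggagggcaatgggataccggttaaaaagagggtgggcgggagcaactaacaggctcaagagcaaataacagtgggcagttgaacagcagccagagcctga
Gja1: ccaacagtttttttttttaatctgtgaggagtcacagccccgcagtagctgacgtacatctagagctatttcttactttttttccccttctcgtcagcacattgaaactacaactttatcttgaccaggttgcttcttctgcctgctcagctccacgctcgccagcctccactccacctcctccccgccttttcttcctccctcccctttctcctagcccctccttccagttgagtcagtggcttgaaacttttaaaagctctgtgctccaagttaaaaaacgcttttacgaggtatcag

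Gjc1, the low-conductance connexin of the early heart and of nodal tissue, had the smallest ratio of highest to lowest library of the 8 genes in both genotypes (1.31 in null, 1.06 in wild type). It was at 37.0, 41.1, 47.1 and 36.1 CPM in null libraries, against 46.3, 47.2 and 49.1 CPM in wild-type libraries. Null replicates 1, 2 and 4 lay below all wild-type libraries, and null replicate 3 lay among them. The log2 fold change was -0.26 (SE 0.144, 95% interval -0.57 to 0.06), with an adjusted p of 0.298. Relative to the summed heart muscle markers it did not overlap, with 9.96 to 11.1 CPM per 10000 CPM of markers in the null and 11.9 to 14.1 in the wild type. That difference was -0.30 on the log2 scale (two-sided exact permutation p = 0.0286, the smallest possible, and 0.229 adjusted over the 8 genes).

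**Figure D3:**
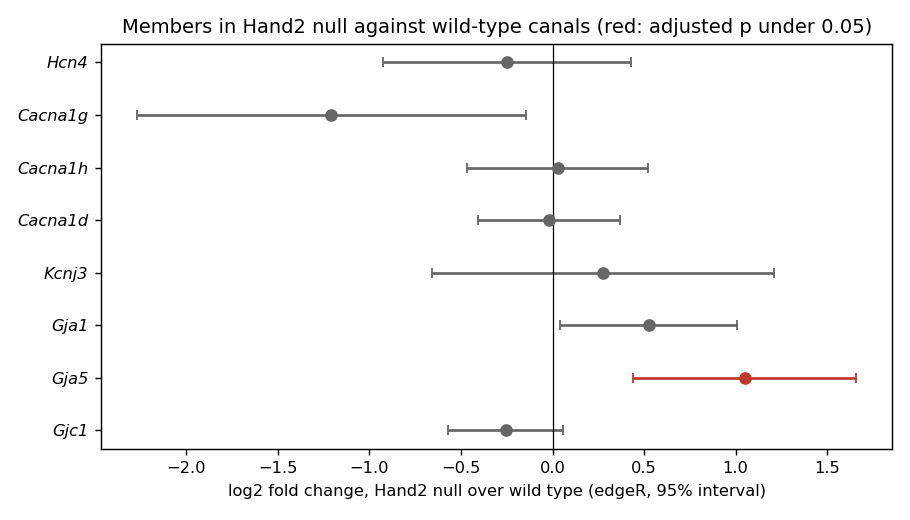
Log2 fold change in Hand2 null over wild-type canals (x axis) with its 95% interval for each of the 8 genes, from the edgeR fit of 7 libraries. Gja5 alone has an adjusted p under 0.05, and the intervals of Cacna1g and Gja1 leave out 0 before adjustment.

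Between connexins, the ratio of Gja5 to Gjc1 was 1.51, 1.91, 0.751 and 2.71 in null replicates 1 to 4, against 0.769, 0.740 and 0.495 in wild-type replicates 2 to 4. The difference of 1.25 on the log2 scale did not pass (two-sided exact permutation p = 0.0857, adjusted p = 0.114 over 4 ratios between the genes), with null replicate 3 inside the wild-type range. The ratios adjusted together included those of Cacna1h and Cacna1d to Cacna1g. The ratio of Gja5 to Gja1 was 0.274 to 0.375 in the null, and 0.153 to 0.333 in the wild-type libraries, a difference of 0.49 on the log2 scale (p = 0.143 by the same exact permutation test, and 0.143 adjusted). In both genotypes the library with the most Hcn4 was replicate 3 and the one with the least was replicate 4. In null libraries Gja1 and Gja5 ran the other way, lowest in replicate 3 and highest in replicate 4. Replicates 3 and 4 stood at opposite ends of the second principal component, which held 21.1% of the variance, in the null (45.6 and -28.6) as in the wild type (18.3 and -26.7). They also had the highest and lowest sums of muscle markers, at 42240 and 35649 CPM in the null and 39499 and 34875 CPM in the wild type. The part of this spread in the comparisons was not tested.

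In bulk tissue a change in cell numbers and a change in RNA per cell cannot be told apart, so Gja5 was also set against markers of the cells that make it. Of 9 endothelial and endocardial markers 4 rose (Pecam1, Tie1, Kdr and Esam) and none fell. Cdh5 (log2 fold change 0.51), Emcn (0.34), Tek (0.08), Nfatc1 (-0.09) and Npr3 (-0.18) did not pass, so the rise was not shared by the whole list. The summed CPM of all 9 was 471 to 531 in null pools against 317 to 364 in wild-type pools. Per 100 CPM of these markers, Gja5 was at 11.2, 15.4, 7.51 and 18.4 in null replicates 1 to 4, against 9.99, 9.59 and 7.67 in wild-type replicates 2 to 4. The groups overlapped on this scale, and the difference of 0.46 on the log2 scale did not pass (two-sided exact permutation p = 0.229, adjusted p = 0.305 over the 8 genes). This scale was chosen after the rise of the markers had been seen. On the muscle scale Gja5 was at 8.37 to 27.4 CPM per 10000 CPM in the null, against 6.97 to 9.42 in the wild type, and the difference of 0.95 did not pass either (exact permutation p = 0.114, adjusted p = 0.305). For Gja1 the difference was 0.46 on the muscle scale (adjusted p = 0.571) and -0.03 on the endothelial scale (adjusted p = 0.914). Negative differences were also found on the endothelial scale for Hcn4 (-0.73), Cacna1g (-1.85), Cacna1h (-0.53), Cacna1d (-0.55), Kcnj3 (-0.08) and Gjc1 (-0.79). None of these passed (exact permutation adjusted p of at least 0.114 over the 8 genes). The higher endothelial sum in null libraries lowered the differences of all 8 genes on this scale. Of 6 epicardial markers none passed, and their sum was 63.5 to 80.2 CPM in the null, and 48.3 to 68.6 CPM in the wild-type libraries. Among foregut markers, Krt19 alone rose (log2 fold change 2.41), while Foxa2 and Shh were too low to be tested, and Epcam (0.17), Cldn6 (-0.04), Nkx2-1 (0.21) and Cdh1 (0.74) did not pass. The list summed to 385 to 568 CPM in the null against 88.2 to 98.5 CPM in the wild type, of which Krt19 alone averaged 474 CPM in the null and 88.0 CPM in the wild type. Of 6 cushion mesenchyme markers 3 fell, and their sum was 71.6 to 103 CPM in the null against 127 to 258 CPM in the wild type. The part of these cell types in the connexin values was not tested.

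**Figure D4:**
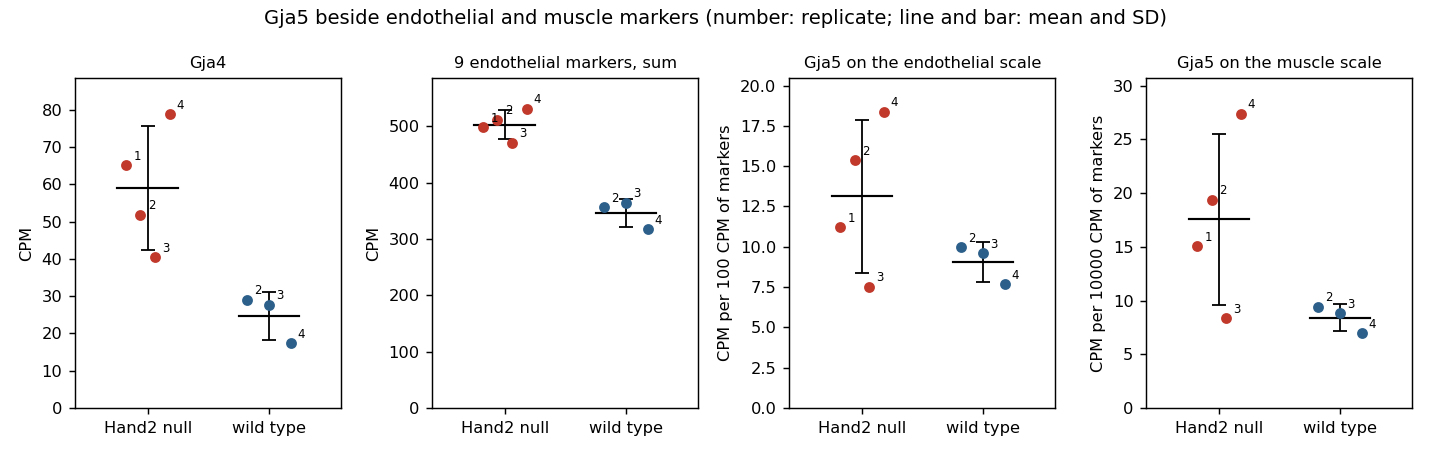
From left, CPM of the endothelial connexin Gja4, summed CPM of 9 endothelial markers, and Gja5 per 100 CPM of those markers and per 10000 CPM of 10 heart muscle markers, in 4 Hand2 null (left) and 3 wild-type (right) libraries with mean and SD. The first and second panels show no overlap, and on both scales null replicate 3 lies within or just below the wild-type range.

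The order of the 8 genes was compared per kilobase of merged exon length. In null canals it was Gja1 (19.3 ± 6.16 CPM per kilobase), Gja5 (11.6 ± 4.71), Gjc1 (8.06 ± 1.01), Cacna1h (2.56 ± 0.769), Cacna1d (1.27 ± 0.259), Hcn4 (0.781 ± 0.212), Kcnj3 (0.278 ± 0.0574) and Cacna1g (0.0263 ± 0.0118). In wild-type canals it was Gja1 (13.2 ± 2.69), Gjc1 (9.5 ± 0.288), Gja5 (5.50 ± 1.10), Cacna1h (2.47 ± 0.380), Cacna1d (1.26 ± 0.123), Hcn4 (0.915 ± 0.355), Kcnj3 (0.228 ± 0.149) and Cacna1g (0.0605 ± 0.00724). Only Gja5 and Gjc1 changed places. In wild type the ranges of these 2 genes did not overlap, whereas in the null they did. The other neighbours whose ranges overlapped were Gja1 and Gja5 in the null, and Cacna1d and Hcn4 in both genotypes. With the longest principal transcript as length the order was the same in both genotypes, the ranges of Gja1 and Gja5 in the null and of Cacna1d and Hcn4 no longer overlapped, and those of Cacna1h and Cacna1d overlapped in the null.

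By pattern over the 7 libraries, the genes nearest to Gja5 among 7978 genes of at least 10 CPM were the fucosyltransferase gene Fut10, the nucleoporin gene Nup98 and Bend4. Their centred log2 CPM differed from that of Gja5 by 0.17, 0.19 and 0.20 on average. Fut10 was called higher (log2 fold change 1.00, adjusted p = 0.0357), but it kept the call only when null replicate 3 was the library left out. Nup98 (0.66, adjusted p = 0.109) and Bend4 (0.62, adjusted p = 0.204) were not called.

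Around these genes, a list of 91 other genes of pacemaking, conduction and coupling was measured by role. Of the 77 tested, 4 rose and 8 fell, or 15.6% against 6.24% of all genes. The list was chosen with earlier results of these data known, so this share is a description and was not tested. Groups did not overlap for 17 of the 77, close to the 21.8% of all genes, and the median log2 fold change was 0.02. Among 17 other connexins, 8 were tested and 1 rose, the endothelial connexin Gja4. It was at 65.1, 51.9, 40.4 and 78.8 CPM in null libraries, against 29.0, 27.7 and 17.3 CPM in wild-type libraries, without overlap. Its log2 fold change was 1.24 (SE 0.245, adjusted p = 0.0127), and it kept the call with any 1 library left out. Per 100 CPM of endothelial markers Gja4 was at 8.58 to 14.8 in null pools against 5.46 to 8.14 in wild-type pools. These ranges came close without overlapping, on a scale chosen after the rise of the markers had been seen, and the difference was not tested.

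Of 6 sodium channel genes 1 fell, the auxiliary subunit Scn4b, to 9.03 ± 1.98 CPM in null against 19.8 ± 9.22 CPM in wild-type canals (log2 fold change -1.15, adjusted p = 0.0380). Its groups overlapped, since wild-type replicate 3 (10.1 CPM) lay below null replicate 2 (10.7 CPM). Of 10 partners at the cell junction 1 fell, the muscle caveolin Cav3 (5.79 ± 1.53 CPM in null canals, 12.7 ± 1.57 CPM in wild-type canals, with a log2 fold change of -1.15, adjusted p = 0.0127). Among 8 receptors, G proteins and Popeye proteins, the adenosine receptor Adora1, which slows the heart, rose (log2 fold change 0.60, adjusted p = 0.0389). The Popeye genes Popdc3 (-0.95, adjusted p = 0.0157) and Bves (-0.78, adjusted p = 0.0272), whose products bind cyclic AMP in heart muscle, fell. Of 15 transcription factors, 2 rose, among them Isl1, and Irx5 (-1.34, adjusted p = 0.0410) and Hopx (-0.80, adjusted p = 0.00677) fell. The canal repressors Tbx2 and Tbx3 had -0.64 (adjusted p = 0.213) and 0.40 (adjusted p = 0.309). Of 8 calcium cycling genes, the calcium pump inhibitor Pln (-1.69, adjusted p = 0.000392) and Trdn, which anchors the calcium store (-0.53, adjusted p = 0.0424), fell. Of 6 chamber markers, Myl2 and Irx4 also fell (-0.86 and -0.71). Nppa (0.51), Nppb (0.61), Bmp10 (-0.32) and Smpx (-0.43) did not pass. The chamber markers summed to 2402 to 3215 CPM in the null, and 1972 to 3721 CPM in the wild-type libraries. The part of chamber muscle in the canals was not tested.

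**Figure D5:**
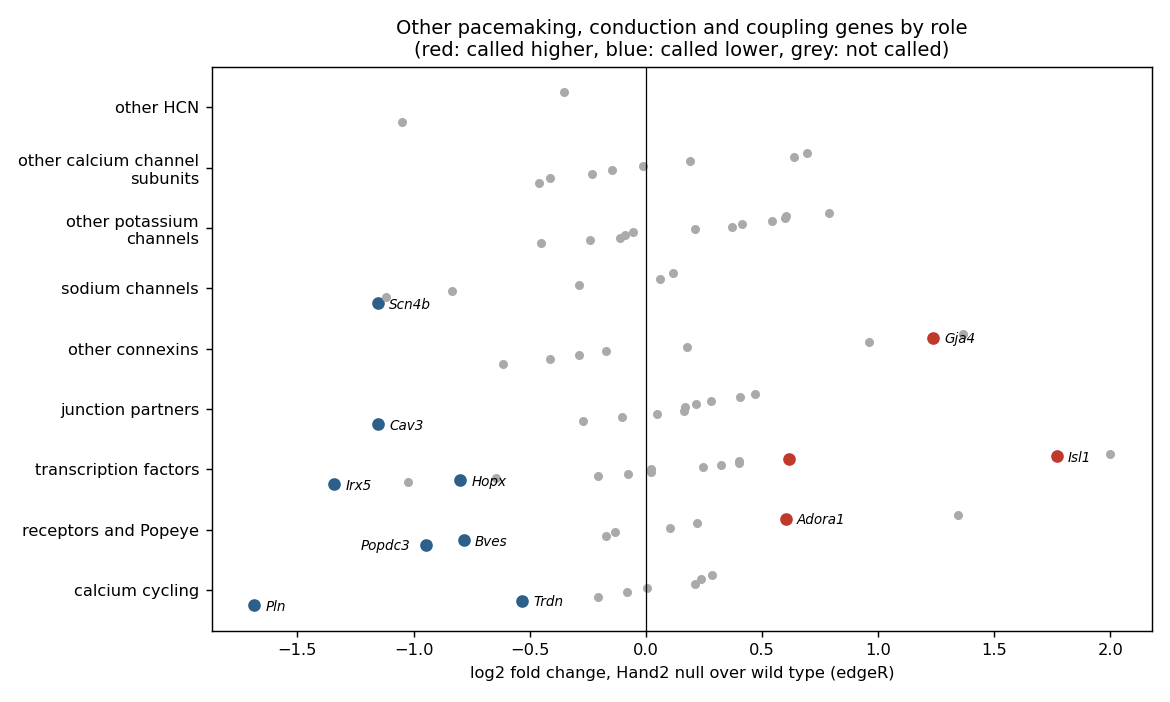
Log2 fold change in Hand2 null over wild-type canals (x axis) of the 77 tested genes of the list, by role (rows), with called genes in colour and those described in the text named. The genes called higher include Gja4, Isl1 and Adora1, and 8 genes are called lower.

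Of the called genes of the list named here, only Gja4 and Pln kept their calls with any 1 library left out. Cav3 lost its call without wild-type replicate 3, and Isl1, Hopx and Popdc3 without wild-type replicate 2. Scn4b lost it when either of null replicates 1 and 2, or of wild-type replicates 2 and 4, was left out. In limma voom, Scn4b (adjusted p = 0.0592) and Irx5 (adjusted p = 0.0560) did not pass. Bves lost it for any of null replicates 1 and 2 and wild-type replicates 2 and 3. Irx5 and Adora1 lost it for the same libraries and for null replicate 4, and Trdn without any library except null replicate 3.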

How the data were processed

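RNA from 7 pools of 4 canals (30 to 60 ng, RNA integrity of at least 8.5) was depleted of ribosomal RNA, amplified for 8 cycles of PCR and sequenced as unstranded 50 nt reads, per the labels' protocols. Of 4 wild-type pools planned, 1 was left out for its RNA quality, per the labels. The deposited files hold raw read counts per gene symbol, and TopHat2 2.0.13, HTSeq, SAMtools and build mm9 are named in the submitters' processing notes. Annotation and counter options: not given in the sources used here. The 5 summary lines of each file were left out. Of all counted reads, 7.31% to 14.2% (null) and 8.79% to 10.0% (wild type) lay in no gene, and 9.08% to 11.6% (null) and 12.2% to 13.8% (wild type), without overlap, aligned more than once. Without strand, overlapping genes cannot be told apart. In GENCODE M21 (GRCm38) Cacna1d shares 589 exon bases with Chdh, Cacna1h 158 with Tpsg1 and Kcnj3 1621 with Gm26794, all on the opposite strand. Reads are not independent molecules after PCR, and floors cover counting error only.

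CPM were computed over gene rows. The test was edgeR 4.0.16 (R 4.3.3), quasi-likelihood, TMM, minimum count 10, genotype as the only term, adjusted over all 14290 genes. SE is the log2 fold change over the square root of F. DESeq2 1.42.0, limma 3.58.1 (voom), other scalings and filters, a replicate block and left-out libraries were alternatives. Ratios were compared by two-sided exact permutation over 35 splits. Merged exon lengths came from GENCODE, which matched 20882 symbols directly and 1969 by older names (433 did not match). The members, lists and tests were chosen with earlier results of these data known. The rule named all 8 genes, up to 4 called genes of each role (or the most abundant where none was called), and the 3 genes nearest in pattern to each called member. Some genes that it picks are not reported here. On simulated counts for null against wild type (14099 genes, 200 changed), 13.4% of genes changed 1.5-fold, 73.1% changed 2-fold and 98.5% changed 4-fold were recovered. Of 131 calls 8 were false. The changed genes were drawn from genes with higher mean read counts than Cacna1g and Kcnj3, so these rates do not cover those genes.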

Additional observations from a re-analysis of the deposited data

Results flagged for a closer look

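The amount of Gjc1 relative to summed heart muscle markers was flagged because 1 null library stood apart from the other 3. Its log2 ratio was -9.81 in null replicate 3, against -9.97, -9.95 and -9.95 in null replicates 1, 2 and 4. The gap of that library was 0.848 of the whole range of the 4 null libraries, above the critical value of 0.829, and chance flags about 1 in 20 such groups. All 4 null values were below the wild-type values of -9.67, -9.71 and -9.47.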

How the results depend on the processing

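Leaving out 1 library at a time gave 210 to 946 genes higher, 46 to 652 lower, 0 to 2 of the 8 members higher, and 1 to 7 and 2 to 9 of the pathway list higher and lower. Log2 fold changes then ranged from -0.52 to 0.0660 for Hcn4, -0.10 to 0.19 for Cacna1h, -0.12 to 0.0740 for Cacna1d, -0.0231 to 0.90 for Kcnj3, 0.31 to 0.67 for Gja1, 0.80 to 1.25 for Gja5 and -0.0554 to 0.35 for Cacna2d2. On the muscle scale they ranged from -0.17 to 0.12 for Cacna1h, -0.16 to 0.0369 for Cacna1d and -0.00813 to 0.95 for Kcnj3. With null replicate 2 and wild-type replicate 4 both left out, 298 and 123 genes, 0 members, and 1 and 2 pathway genes were higher and lower, with Gja5 at 0.83 (adjusted p = 0.215) and Cacna1h at -0.22. These fits hold fewer samples.

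Gja5 did not pass with upper-quartile scaling (1.03, adjusted p = 0.0506, 0 members) or limma voom (0.99, adjusted p = 0.0623, 0 members, Cacna1h at -0.0307), and the cause was not tested. DESeq2 called 1015 genes higher and 811 lower, with 8 pathway genes higher, and 55.6% of its calls were higher against 65.8% in edgeR. The sign of Cacna1h on the muscle scale turned without Myh6, Myh7 and Ttn (0.0122), and those of Kcnj3 (-0.0840) and Gja1 (-0.0287) on the endothelial scale. With a pseudocount of 1 CPM, the log2 ratio of Cacna1h to Cacna1g differed by 0.36 and that of Cacna1d to Cacna1g by 0.34, against 1.32 and 1.30 without it. Cacna1g has no value under the stricter filter.

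Replicate numbers are shared by the labels, which do not state that they pair samples, so they were not taken as pairs in the main fit. The deviations of same-numbered libraries correlated at -0.0732, 0.257 and 0.166 for replicates 2, 3 and 4. Null replicate 3 with wild-type replicate 4, and null replicate 4 with wild-type replicate 3, both gave -0.234. Null replicate 2 with wild-type replicate 4 gave 0.137. Whether same-numbered libraries share a source of spread was not tested. The replicate block gave 565 genes lower, 7 pathway genes higher and 2 members higher, with Gja1 at 0.52 (adjusted p = 0.0454), Kcnj5 called (adjusted p = 0.0300) and Cacna1d at 0.0804. Depth limits Cacna1g, which rests on 4 to 24 reads a library.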
